A study of Mus musculus with 10 samples.

Results

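The genes described here are 10 that mark the fibroblasts of the meninges, the membranes around the brain, and in particular its thin inner layers, the leptomeninges. They form a list of named genes, chosen as markers of these cells with earlier results of these data known, and were found by matching Ensembl identifiers to mouse symbols. All 10 were among the 56884 genes of the count table, and all 10 had enough counts to be among the 17622 genes tested. Bulk RNA-seq was carried out on hippocampus of female P301S (PS19) mice, with 1 library per mouse, to ask what an added androgen changes in a brain with Tau pathology. The 5 void-treated females received an empty subcutaneous SILASTIC implant, and the 5 DHT-treated females an implant of the same tubing packed with 10 mm of dihydrotestosterone (DHT) powder, an androgen that aromatase cannot turn into estrogen. Treatment began at 6 months of age and lasted 12 weeks, and hippocampi were taken at 9 to 9.5 months after perfusion with PBS. Both groups carry the same transgene, human 1N4R Tau with the P301S mutation on a B6;C3 background, and both kept their ovaries. The transgene is driven by the mouse Prnp promoter, which is active in many cell types and brain regions, and mice without the transgene were not analysed here.

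Total counts per mouse ran from 27188854 to 47113661 with void and from 33523527 to 45947784 with DHT, with medians of 32844884 and 36379142. The groups overlapped in total count (two-sided exact permutation test, p = 0.365). The void libraries hold positions 4 to 11 and the DHT libraries positions 18 to 23 in the numbering of the libraries, so the order of the libraries cannot be told apart from treatment. Void mice 5 and 11 stood apart in the level of markers of the choroid plexus. This epithelium secretes cerebrospinal fluid and lies beside the hippocampus in the ventricle. The summed level of 12 choroid plexus markers was 968, 119, 1913, 458 and 128 CPM (counts per 1000000 of the library's total, with totals scaled by TMM) in void mice 4, 5, 9, 10 and 11. It was 3161, 2260, 2230, 2287 and 2524 CPM in DHT mice 1, 2, 3, 5 and 6. Every DHT-treated mouse was thus above every void-treated mouse, with void mouse 9 nearest to them and void mice 5 and 11 lowest.

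The leptomeninges cover the surface of the hippocampus and follow its vessels inward, and their cells can be taken with a dissected hippocampus. Their fibroblasts lay down collagens and small leucine-rich proteoglycans, take up GABA, organic anions and other solutes through membrane transporters, and make retinoic acid, a vitamin A product that acts on nuclear receptors. They also secrete insulin-like growth factor 2 and a protein that binds it, as does the choroid plexus epithelium. In bulk RNA, fewer cells of a type and less RNA per cell cannot be told apart.

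In DHT-treated females Igf2 rose about 3.21-fold, and Igfbp2 was higher on average without passing the threshold, while the 95% intervals of the log2 fold changes of the other 8 genes all held 0. A gene was called when its p from edgeR's quasi-likelihood test, adjusted by the method of Benjamini-Hochberg, was under 0.05 and the log2 fold change exceeded 1 in size. By this limit 1 of the 10 members was called higher, against 382 of 17622 genes tested (2.17%). That number of genes fell to 250 without void mouse 4, 197 without void mouse 11, 242 without DHT mouse 3 and 175 without DHT mouse 1, and was at most 513, without void mouse 9, while Igf2 was called each time. At an adjusted p under 0.05 with no limit on the fold, the count was also 1 of 10, against 5.48% of all genes tested. The groups were fully apart, with the DHT-treated mice above, for 1 of 10 members, again Igf2, against 5.39% of genes tested. No member was called lower: edgeR gave 0, with 0 lower at an unadjusted p under 0.05, and DESeq2 also gave 0. Over all genes tested edgeR called 4 lower (0.0227%), so a count of 0 in 10 genes is near the background, and 4.22% were lower at the unadjusted limit. At that limit 2 members were higher in either tool, Igf2 and Igfbp2, against 13.1% of genes tested in edgeR. The median log2 fold change was -0.03 over the 10 members and 0.01 over all genes tested, and 4 members had a positive and 6 a negative value. The sign of the members' median changed when single mice were left out, from -0.27 without DHT mouse 3 to 0.39 without void mouse 11.

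**Figure D1:**
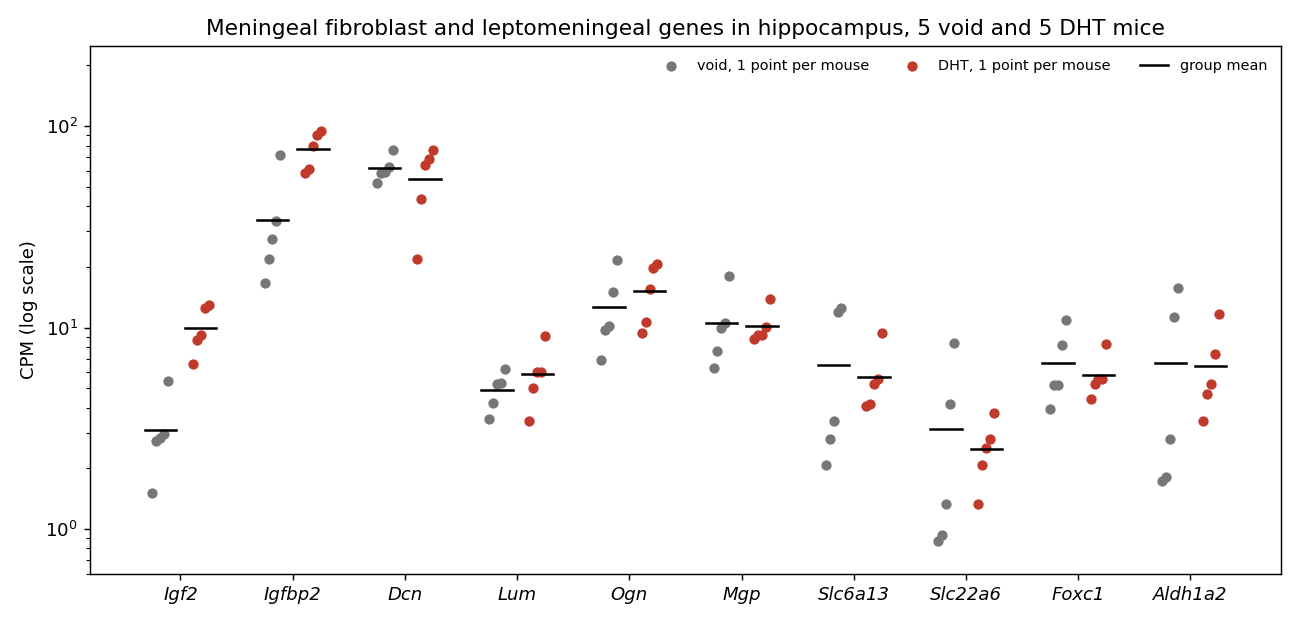
CPM (log scale) of the 10 genes in each of 5 void-treated (grey) and 5 DHT-treated (red) females, 1 point per mouse, with black bars for the group means. For Igf2 the DHT-treated mice lie between 6.62 and 12.9 CPM, above the void-treated mice at 1.51 to 5.40, and for the other 9 genes the groups overlap.

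Igf2 (ENSMUSG00000048583) encodes a secreted growth factor that acts on the insulin and IGF1 receptors. It was at 2.83, 2.97, 5.40, 1.51 and 2.73 CPM in void mice 4, 5, 9, 10 and 11, and at 12.4, 8.64, 6.62, 9.19 and 12.9 CPM in DHT mice 1, 2, 3, 5 and 6. The groups did not overlap, with void mouse 9 highest among the void-treated mice and DHT mouse 3 lowest among the DHT-treated mice. Means were 3.09 ± 1.42 CPM in void-treated and 9.95 ± 2.66 in DHT-treated mice (SD, n = 5 each). This is a log2 fold change of 1.68 (standard error 0.28, 95% interval 1.06 to 2.30; adjusted p = 0.00931 in edgeR's quasi-likelihood test). Igf2 passed in all 10 fits that left out a single mouse, with log2 fold changes of 1.52 to 1.97 and adjusted p values of 0.00130 to 0.0360. With void mice 5 and 11 left out together, a choice made after seeing the data, its log2 fold change was 1.58 (adjusted p = 0.0831). With the mean log2 level of the 12 choroid plexus markers as a covariate, it was 1.11 (standard error 0.41, adjusted p = 0.663), and in neither of these fits was any gene of the whole table called. That mean level was 1.65 to 5.65 log2 CPM with void and 6.01 to 6.81 with DHT, without overlap. For every gene, the fit with the covariate therefore cannot fully tell choroid plexus level apart from treatment. In the reference annotation Igf2 shares 3596 exonic bases with the same-strand gene Gm49394 and 98 bases with the antisense gene Igf2os. Over all mice these had 23 and 225 counts against 2394 for Igf2. How the counting treated strand is not given in the sources used here, so reads from the stretch shared with Igf2os cannot be assigned to either gene. Igf2os itself was at 0.431 ± 0.170 CPM in void-treated and 0.789 ± 0.192 in DHT-treated mice (SD, n = 5 each), with a log2 fold change of 0.85 and an adjusted p of 0.105, or 1.06 and 0.0391 without void mouse 9 and 0.38 and 0.954 with the choroid plexus covariate.

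Igfbp2 (ENSMUSG00000039323) encodes an extracellular protein that binds IGF1 and IGF2. Its level was 33.6, 16.6, 71.7, 27.6 and 21.9 CPM in void mice 4, 5, 9, 10 and 11, and 90.8, 58.7, 60.9, 79.9 and 94.5 CPM in DHT mice 1, 2, 3, 5 and 6. Void mouse 9 lay inside the range of the DHT-treated mice, 3 of which were above it, and the other 4 void-treated mice were below all of them. Means were 34.3 ± 21.9 CPM in void-treated and 77.0 ± 16.6 in DHT-treated mice (SD, n = 5 each). The log2 fold change of 1.16 (standard error 0.33, 95% interval 0.45 to 1.88) had an adjusted p of 0.0652 and missed the threshold in edgeR's test. It passed with DESeq2 (adjusted p = 0.0494), with a filter of at least 1 count in total (0.0249) and without void mouse 9 (log2 fold change 1.62, adjusted p = 0.00170). Over all alternatives its adjusted p ran from 0.00170 to 0.994, the latter with the choroid plexus covariate, where the log2 fold change was 0.07. Without void mice 5 and 11, a choice made after seeing the data, the log2 fold change of Igfbp2 was 0.77 (adjusted p = 0.242).

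Void mouse 9 was the highest void-treated mouse for Igf2, for Igfbp2 and for the summed choroid plexus markers. The 5 void-treated mice had the same order for Igfbp2 as for that sum, but not for Igf2, where void mouse 5, lowest in the sum, came next after void mouse 9. After the group means were taken away, Pearson's r with the mean log2 level of those 12 markers over the 10 mice was 0.88 for Igfbp2 and 0.45 for Igf2, and r between Igf2 and Igfbp2 was 0.65. These are descriptions of likeness and carry no test. All 12 choroid plexus markers had a positive log2 fold change, with a median of 2.15, and 4 of them, F5, Kl, Otx2 and Clic6, were called higher, in 6, 4, 2 and 1 of the 10 fits that left out a single mouse, and all 12 were called without void mouse 9. Ttr, the carrier of thyroid hormone and retinol and the most abundant of the 12, was at 492 ± 533 CPM in void-treated and 1519 ± 195 in DHT-treated mice (SD, n = 5 each; log2 fold change 1.63, adjusted p = 0.237 from edgeR's test). None of the 12 was at 0 in any mouse. The part of choroid plexus content in the values of Igf2 and Igfbp2 was not tested.

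Of 21 other genes of the IGF axis, 18 were tested and 0 were called in either direction by edgeR, with 3 higher and 1 lower at an unadjusted p under 0.05, and 0 called by DESeq2. Igfbp7, which encodes a secreted protein related to the IGF binding proteins and was picked out after its values were seen, had an adjusted p of 0.0361 at a log2 fold change of 0.44, and passed in 2 of the 10 fits that left out a single mouse (adjusted p up to 0.127), and was at 0.25 with the choroid plexus covariate (adjusted p = 0.874). The most abundant gene of the list, Igfbp5, was at 289 ± 39.9 CPM in void-treated and 321 ± 57.3 in DHT-treated mice (SD, n = 5 each), and its groups overlapped. H19, the imprinted non-coding neighbour of Igf2, was at 0.302 ± 0.160 and 0.350 ± 0.258 CPM, with a 95% interval of its log2 fold change from -0.85 to 1.32. The list's median log2 fold change was 0.05, and -0.04 without void mice 5 and 11.

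Among the matrix genes, Dcn (ENSMUSG00000019929) encodes decorin, a proteoglycan that binds collagen fibrils. It was at 58.3, 76.1, 62.8, 52.1 and 59.3 CPM in void mice 4, 5, 9, 10 and 11, and at 21.8, 68.3, 76.1, 63.8 and 43.4 CPM in DHT mice 1, 2, 3, 5 and 6. DHT mice 1 and 6 were below every void-treated mouse, DHT mouse 3 was level with void mouse 5, the highest with void, and the groups overlapped, so that the spread was wider with DHT (standard deviation 22 CPM) than with void (8.90 CPM). The log2 fold change was -0.17 (standard error 0.26, 95% interval -0.74 to 0.39; adjusted p = 0.820 from edgeR's test). Dcn was the member with the smallest ratio of highest to lowest mouse with void, 1.46, and with the largest with DHT, 3.49.

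Lum (ENSMUSG00000036446) and Ogn (ENSMUSG00000021390) encode lumican and osteoglycin, which belong to the same family of small leucine-rich proteoglycans, and Mgp (ENSMUSG00000030218) encodes matrix Gla protein, an inhibitor of calcification. Lum ranged from 3.51 to 6.23 CPM with void and from 3.45 to 9.05 with DHT, Ogn from 6.94 to 21.7 and from 9.38 to 20.8, and Mgp from 6.27 to 18.1 and from 8.81 to 13.9. All 3 were highest in void mouse 11 among the void-treated mice and in DHT mouse 3 among the DHT-treated mice, and lowest with void in mouse 10. The groups overlapped for each. The 95% intervals of their log2 fold changes were -0.23 to 0.77 for Lum, -0.39 to 0.92 for Ogn and -0.57 to 0.50 for Mgp, with adjusted p values of 0.630, 0.743 and 0.970 from edgeR's test.

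Of 12 other small leucine-rich proteoglycan genes 8 were tested, and 0 were called by edgeR or DESeq2, with 2 higher and 0 lower at an unadjusted p under 0.05. Prelp, which anchors basement membranes to connective tissue and is the most abundant of the list, rose without reaching the fold limit. It was at 48.6 ± 7.77 CPM in void-treated and 74.8 ± 7.34 in DHT-treated mice (SD, n = 5 each), with every DHT-treated mouse above every void-treated mouse, and had a log2 fold change of 0.62 (adjusted p = 0.00939). Without void mice 5 and 11 the log2 fold change of Prelp was 0.53 and its adjusted p 0.0737, and with the choroid plexus covariate 0.35 and 0.716. The neighbours of Ogn in its gene cluster, Aspn, Omd and Ecm2, were at 1.34, 0.712 and 11 CPM with void and 1.42, 0.756 and 12.8 with DHT, with adjusted p values of 0.915, 0.965 and 0.586. Kera and Epyc, the neighbours of Lum and Dcn, were under the filter, with at most 9 and 25 counts in a mouse.

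Slc6a13 (ENSMUSG00000030108) encodes GAT2, a transporter of GABA and taurine. It was at 2.79, 11.9, 2.08, 3.43 and 12.6 CPM in void mice 4, 5, 9, 10 and 11, and at 5.27, 4.19, 9.38, 5.54 and 4.08 CPM in DHT mice 1, 2, 3, 5 and 6. Void mice 5 and 11 were above all DHT-treated mice and the other 3 void-treated mice were below all of them, so the void group spanned the DHT group on both sides. DHT minus void gave a log2 fold change of -0.19 (standard error 0.48, 95% interval -1.24 to 0.85; adjusted p = 0.902 from edgeR's test).

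Slc22a6 (ENSMUSG00000024650) encodes OAT1, an exchanger of organic anions best known from the kidney. Its level was 0.930, 4.15, 0.869, 1.33 and 8.42 CPM in void mice 4, 5, 9, 10 and 11, and 2.08, 1.33, 3.75, 2.78 and 2.53 CPM in DHT mice 1, 2, 3, 5 and 6. Void mice 5 and 11 were again above every DHT-treated mouse, void mice 4 and 9 were below all of them and void mouse 10 was level with the lowest, and the highest void-treated mouse had 9.69 times the level of the lowest. The log2 fold change was -0.32 (standard error 0.58, 95% interval -1.58 to 0.93; adjusted p = 0.856).

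Of the 6 related transporters of GABA, taurine, betaine and creatine, all 6 were tested and 0 were called by edgeR, with 0 at an unadjusted p under 0.05 and 0 by DESeq2, and their median log2 fold change was 0.00139, or -0.03 with DESeq2. Slc6a12, which lies beside Slc6a13 in the genome and encodes the betaine transporter, was at 0.233, 0.831, 0.0931, 0.185 and 1.74 CPM in void mice 4, 5, 9, 10 and 11, again highest in mice 5 and 11. Of 14 other transporters of organic anions and cations 13 were tested and 1 was called higher, Slc22a18, at 0.376 ± 0.130 CPM in void-treated and 0.883 ± 0.144 in DHT-treated mice (SD, n = 5 each; log2 fold change 1.24, adjusted p = 0.0128). With the choroid plexus covariate the log2 fold change of Slc22a18 was 0.72 (adjusted p = 0.787). Slco1c1 and Slco2b1, named after their values were seen, passed the adjusted p but not the fold limit, at log2 fold changes of 0.54 and 0.50, and did so in 4 and 6 of the 10 fits that left out a single mouse (adjusted p up to 0.0992 and 0.0748). With the choroid plexus covariate they were at 0.24 and 0.42, with adjusted p values of 0.890 and 0.728. Slc22a8, the neighbour of Slc22a6, was at 13.5 ± 3.92 and 15.3 ± 2.92 CPM (SD, n = 5 each), with a log2 fold change of 0.18 and an adjusted p of 0.717. Slc22a17, the most abundant of the list, was at 351 ± 68.4 and 419 ± 121 CPM (SD, n = 5 each), with an adjusted p of 0.546.

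Foxc1 (ENSMUSG00000050295) encodes a forkhead transcription factor that the meninges need to form. It was at 5.20, 8.18, 3.94, 5.20 and 10.9 CPM in void mice 4, 5, 9, 10 and 11, and at 5.22, 4.44, 8.27, 5.54 and 5.54 CPM in DHT mice 1, 2, 3, 5 and 6. Void mouse 11 was the highest of all, with DHT mouse 3 and void mouse 5 next and close to each other. DHT minus void gave a log2 fold change of -0.20 (standard error 0.26, 95% interval -0.77 to 0.37; adjusted p = 0.782 from edgeR's test).

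Aldh1a2 (ENSMUSG00000013584) encodes RALDH2, the enzyme that oxidizes retinaldehyde to retinoic acid. Levels were 2.79, 11.2, 1.74, 1.81 and 15.7 CPM in void mice 4, 5, 9, 10 and 11, and 4.70, 3.43, 11.6, 7.36 and 5.24 CPM in DHT mice 1, 2, 3, 5 and 6. Void mouse 11 was highest, DHT mouse 3 and void mouse 5 came next, and the other 3 void-treated mice were below every DHT-treated mouse. The log2 fold change was -0.03 (standard error 0.59, 95% interval -1.32 to 1.25; adjusted p = 0.990), with an interval that reaches beyond the fold limit of 1 in both directions.

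Of 20 other genes of the retinoic acid pathway 18 were tested, with a median log2 fold change of 0.10. Rdh10, which makes retinaldehyde from retinol, and Dhrs3, which turns it back, were named after their values were seen and passed the adjusted p at log2 fold changes of 0.42 and 0.41, and in 5 and 4 of the 10 fits that left out a single mouse (adjusted p up to 0.125 and 0.111). With the choroid plexus covariate they were at 0.33 and 0.27, with adjusted p values of 0.790 and 0.828. Aldh1a1, the most abundant gene of the list, was at 65.2 ± 5.31 and 73.0 ± 14.1 CPM (SD, n = 5 each), with an adjusted p of 0.543.

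Slc6a13, Slc22a6, Foxc1 and Aldh1a2 were thus all highest in void mice 11 and 5 among the void-treated mice, unlike Igf2 and Igfbp2. After the group means were taken away, Pearson's r over the 10 mice was 0.94 to 0.96 for the 6 pairs of these 4 genes. By the same measure, r with these 4 genes was -0.79 to -0.63 for Igfbp2 and -0.34 to -0.15 for Igf2. The r with the mean log2 level of the choroid plexus markers was -0.86 for Slc6a13, -0.84 for Slc22a6, -0.80 for Foxc1 and -0.78 for Aldh1a2. The matrix genes lay nearer to 0, at -0.21 for Dcn, -0.26 for Lum, -0.42 for Ogn and -0.35 for Mgp. Among the members, 8 had their highest DHT-treated mouse in DHT mouse 3, while Igf2 and Igfbp2 had it in DHT mouse 6. In 5 of 10 members, Ogn and the 4 genes above, void mice 5 and 11 were the highest of the void-treated mice and DHT mouse 3 the highest of the DHT-treated mice. The same held for 25 of 55 other meningeal genes (45.5%) and for 759 of all 17622 genes tested (4.31%). That order was picked out after the values were seen.

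**Figure D2:**
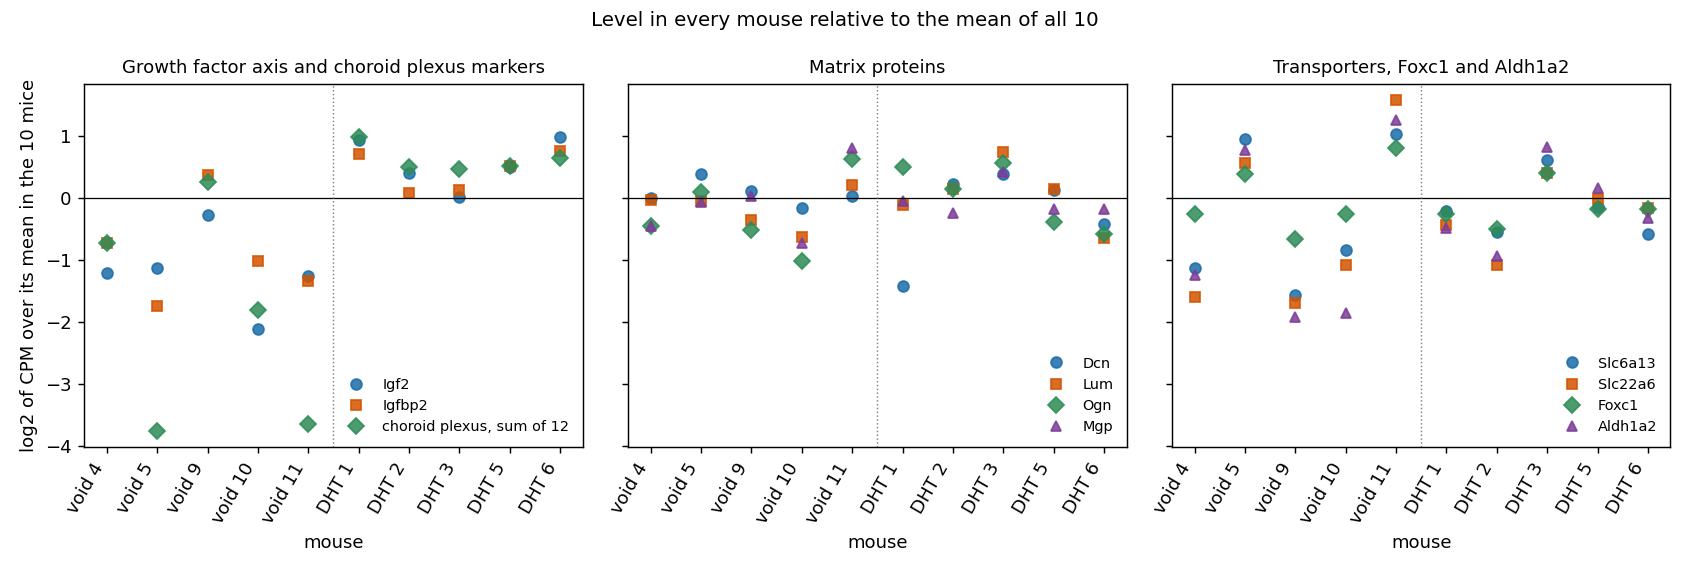
Level in each mouse as log2 of CPM over the gene's mean in all 10 mice, with void-treated mice left and DHT-treated mice right of the dotted line, for Igf2, Igfbp2 and the sum of 12 choroid plexus markers (left panel), the matrix genes (middle) and the transporters, Foxc1 and Aldh1a2 (right). Void mice 5 and 11 are lowest for the choroid plexus sum, at 119 and 128 CPM, and highest among void-treated mice for the genes of the right panel.

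The fitted differences changed when the 2 void mice were left out. With void mice 5 and 11 left out together, a choice made after seeing the data, the median log2 fold change of the members was 0.75, and edgeR called 0 members, with 6 higher and 0 lower at an unadjusted p under 0.05; DESeq2 was not run without these mice. The log2 fold changes were then 1.02 for Slc6a13, 1.24 for Slc22a6, 0.25 for Foxc1 and 1.57 for Aldh1a2, each positive where the value with all mice was negative. Their adjusted p values were 0.135, 0.105, 0.641 and 0.0974. With the choroid plexus covariate the 4 values were 2.11, 2.54, 0.79 and 2.69, with standard errors of 0.48, 0.60, 0.30 and 0.68, and again none passed. In that edgeR fit 5 members were higher and 0 lower at an unadjusted p under 0.05, and no gene of the whole table was called. The sign of the difference thus differed between the fits for these 4 genes. Void mice 5 and 11 were their highest void-treated mice, so leaving them out raised each difference by construction. The covariate did not overlap between the groups, so its fit cannot fully separate it from treatment. The part of choroid plexus content in these values was not tested.

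**Figure D3:**
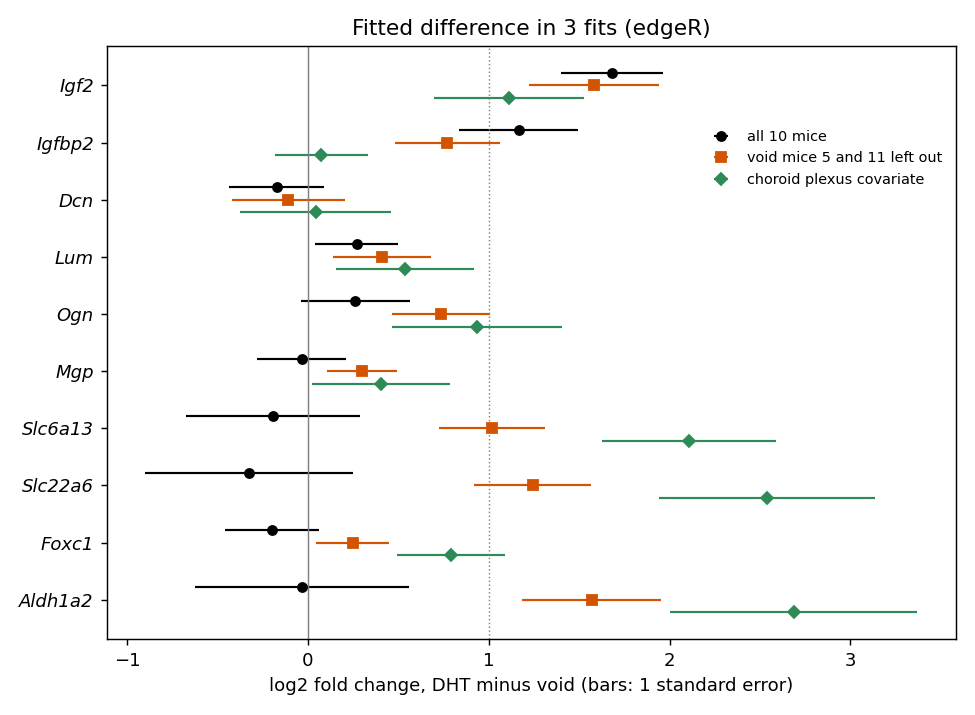
Log2 fold change (DHT minus void) of each of the 10 genes with 1 standard error, from edgeR with all 10 mice (black), with void mice 5 and 11 left out (orange) and with the choroid plexus covariate (green). The solid line marks 0 and the dotted line 1, and Igf2 lies at 1.68, 1.58 and 1.11 in the 3 fits, and Aldh1a2 at -0.03, 1.57 and 2.69.

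The 8 genes outside the list whose levels were most like those of the members, by the mean of r with all 10 members over the 10 mice, were Anxa1, Gxylt2, Uaca, Mpzl2, Gm47171, Alx4, 5330413P13Rik and Fmod. The mean r ran from 0.57 for Anxa1 to 0.55 for Fmod, and rests on 7 of the members. Over the 8 genes r was -0.66 to -0.31 with Igfbp2, -0.26 to 0.26 with Igf2 and 0.14 to 0.33 with Dcn, against 0.48 to 0.96 with the other 7 members. None of the 8 passed the test between the groups, and the lowest adjusted p was 0.232, for Gxylt2. Fmod encodes fibromodulin, of the same proteoglycan family as Dcn, and was at 3.51, 17.3, 4.37, 3.17 and 24.2 CPM in void mice 4, 5, 9, 10 and 11, again highest in void mice 5 and 11. Its mean was 10.5 ± 9.67 CPM in void-treated and 10.7 ± 4.34 in DHT-treated mice (SD, n = 5 each).

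Per kilobase of exon in the GENCODE M21 annotation, which makes levels comparable between genes, Igfbp2 had the highest mean in both groups, at 18.6 ± 11.8 CPM per kb in void-treated and 41.7 ± 8.96 in DHT-treated mice (SD, n = 5 each). Dcn and Mgp followed, with void within the spread of Igfbp2, at 10.6 ± 1.52 and 8.83 ± 3.87 CPM per kb, and Ogn at 4.95 ± 2.26. Aldh1a2, Slc6a13 and Lum, at 2.94, 2.25 and 2.002 CPM per kb, overlapped in their spread, and Foxc1 was at 1.14. Slc22a6, at 0.788 ± 0.816, and Igf2, at 0.540 ± 0.248 CPM per kb, had the lowest means with void and were within their spread of each other. The exon length of Igf2 includes 3596 bases shared with Gm49394. How reads from that stretch were counted is not given in the sources used here. The place of Igf2 in this order is therefore uncertain in both groups. With DHT, Igf2 reached 1.74 ± 0.464 CPM per kb, above Foxc1 at 0.993 and Slc22a6 at 0.626, and the order of the other members changed only in that Lum, at 2.41, was above Slc6a13, at 1.96.

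Of 57 other genes of pial, arachnoid and dural fibroblasts, 55 were tested and 3 were called higher with DHT, Bmp6, S100a6 and Slc13a4, with 0 lower. Their median log2 fold change was 0.10, with 34 positive and 21 negative values. It was 0.25 without void mouse 11, 0.41 without void mice 5 and 11 and 0.66 with the choroid plexus covariate. At an unadjusted p under 0.05 edgeR and DESeq2 each gave 14 higher and 3 lower, and 1 gene was lower at an adjusted p under 0.05 in DESeq2. Bmp6, a secreted bone morphogenetic protein, was at 11.8 ± 3.94 CPM in void-treated and 25.8 ± 3.83 in DHT-treated mice (SD, n = 5 each; log2 fold change 1.13, adjusted p = 0.00965 from edgeR's test). S100a6, a calcium-binding protein, was at 5.71 ± 0.918 and 11.9 ± 3.05 CPM (log2 fold change 1.06, adjusted p = 0.00995). S100a6 kept an adjusted p under 0.05 without any single mouse, but was under the fold limit without void mouse 4 (log2 fold change 0.9998), void mouse 11 (0.97), DHT mouse 1 (0.95) or DHT mouse 5 (0.94). Slc13a4, a sulfate transporter, was at 16.9 ± 9.34 and 45.4 ± 8.24 CPM (log2 fold change 1.42, adjusted p = 0.0214), and like Igf2 was highest in void mouse 9 among the void-treated mice. Slc13a4 missed the threshold without void mouse 4 (adjusted p = 0.0641), void mouse 5 (0.0520), void mouse 11 (0.0568) or DHT mouse 1 (0.0654), and passed without any other single mouse. Bmp6, S100a6 and Slc13a4 had every DHT-treated mouse above every void-treated mouse. Ccn3, a secreted matrix protein named after its values were seen, had every DHT-treated mouse below every void-treated mouse, at 148 ± 19.6 and 108 ± 20.1 CPM (SD, n = 5 each; log2 fold change -0.45, adjusted p = 0.0806 from edgeR's test). Mmp2 and Bmp7, named after their values were seen, passed the adjusted p at log2 fold changes of 0.95 and 0.71, and each in 2 of the 10 fits that left out a single mouse (adjusted p up to 0.123 and 0.129). Mmp2 was beyond the fold limit in those fits, without void mouse 9 (1.21) or DHT mouse 2 (1.03). With the choroid plexus covariate the log2 fold change was 0.17 for Mmp2, 0.66 for Bmp6, 0.90 for Slc13a4, 0.90 for S100a6 and 0.79 for Bmp7, and none of the 5 passed (adjusted p from 0.649 to 0.975). The gene of the list with the highest mean over all 10 mice, Apod, which oligodendrocytes also express, was at 144 ± 33.5 and 179 ± 15.9 CPM (SD, n = 5 each), with an adjusted p of 0.258. The summed level of the 57 genes was 869, 1105, 876, 894 and 1105 CPM in void mice 4, 5, 9, 10 and 11, and 1085, 956, 1210, 1040 and 1145 CPM in DHT mice 1, 2, 3, 5 and 6. Void mice 5 and 11 were thus the highest with void and DHT mouse 3 the highest with DHT, and the groups overlapped. Abundant genes led the sum, with void means of 148 CPM for Ccn3, 144 for Apod and 111 for Cldn11, against 970 in all. As oligodendrocytes also express Apod, the sum does not stand for meningeal fibroblasts alone.

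Markers of the vessels and of the cells that lie along the meninges gave 0 calls by edgeR. None of 10 endothelial and 10 mural cell markers was at an unadjusted p under 0.05 in edgeR or in DESeq2, and their median log2 fold changes were -0.05 and -0.04, and 0.12 and 0.08 without void mice 5 and 11. Summed endothelial markers, led by Flt1, were at 286, 365, 245, 288 and 324 CPM in void mice 4, 5, 9, 10 and 11, and summed mural markers, led by Rgs5, at 255, 324, 220, 239 and 296 CPM, both highest in void mice 5 and 11 and lowest in void mouse 9. In DHT mice 1, 2, 3, 5 and 6 the sums were 313, 278, 329, 297 and 280 CPM for endothelium and 251, 223, 314, 246 and 245 CPM for mural cells, both highest in DHT mouse 3. Of 10 markers of border-associated macrophages, the resident macrophages of the meninges, 9 were tested, with 1 higher and 0 lower at an unadjusted p under 0.05 in edgeR, and DESeq2 called 0. Their sum, led by Stab1, was 21.1, 33.8, 15.4, 21.3 and 23.2 CPM in void mice 4, 5, 9, 10 and 11, and 30.4, 19.6, 28.9, 22.03 and 19.8 CPM in DHT mice 1, 2, 3, 5 and 6. The part of these cells in the levels of the members was not tested.

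Of 10 ependymal markers, led by Tppp3, all had a positive log2 fold change, with a median of 0.57, and edgeR called 0, with 5 higher at an unadjusted p under 0.05, while DESeq2 called 2. Without void mouse 4 edgeR called 1 of them, and without void mouse 9 it called 4. Their sum was 64.0, 46.8, 70.2, 54.9 and 30.3 CPM in void mice 4, 5, 9, 10 and 11, and 82.9, 76.6, 81.4, 75.1 and 92.6 CPM in DHT mice 1, 2, 3, 5 and 6, lowest in void mice 5 and 11 like the choroid plexus markers. Of the markers of cells inside the tissue, 1 of 10 for astrocytes (Gfap, log2 fold change 1.18) and 1 of 10 for microglia (C1qa, 1.30) were called higher. Gfap was under the fold limit without DHT mouse 1 (log2 fold change 0.998). All 10 microglial markers had a positive log2 fold change, 5 passed the adjusted p, and their sum was 471 to 549 CPM with void and 648 to 942 with DHT, so that the groups did not overlap. For neurons 0 of 10 were called by edgeR and by DESeq2, with 0 higher and 2 lower at an unadjusted p under 0.05. Of the neuronal markers 9 had a negative log2 fold change, and their sum was 7743 to 8504 CPM with void and 6807 to 7689 with DHT, so that these groups did not overlap either. The most abundant marker of astrocytes was Slc1a2 at 4407 ± 696 CPM and that of neurons Map2 at 2006 ± 126 with void (SD, n = 5 each), so markers of neurons and astrocytes were present in the hippocampal RNA. Blood markers, led by Hbb-bs, summed to between 0.599 and 2.68 CPM, and 1 of 5 was tested, with an adjusted p of 0.979.

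Promoter windows of 300 bases (RefSeq, GRCm38.p6) were at hand for 7 of the 10 members, in 13 windows, and not for Dcn, Lum and Mgp. They were searched on both strands for AGAACA, the half-site of the androgen receptor's response element, since the treatment is an androgen. It was in 3 of the 13 windows (23.1%) and in 6233 of all 32851 windows of the reference set (19%). The matches were in 1 of 4 windows of Igf2, 1 of 2 of Igfbp2 and 1 of 3 of Slc6a13, and those of the 2 growth factor axis genes, which had the largest differences between the groups, are shown with the half-site in capitals. The match of Igf2, on chromosome 7, minus strand, begins 85 bases before that transcript's start and reads as the reverse complement TGTTCT. That of Igfbp2, on chromosome 1, plus strand, begins 206 bases before the start. The printed stretches, which hold the matches and the bases around them, lie at chr7:142666884-142666913 for Igf2 and chr1:72824262-72824291 for Igfbp2.
Igf2: ctaattctattgTGTTCTgaaggccatggg
Igfbp2: cctaaccagggaAGAACAgaggggtccgct
A match describes these letters in the window and says nothing of binding.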

How the data were processed

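Libraries were made from hippocampal RNA with an mRNA kit, 1 per mouse. The raw counts used here were deposited by the authors, whose reads were cleaned with HTStream and aligned with STAR. The submitters' processing notes name STAR 2.7.10b, DESeq2 1.42.0 and mm39 (GRCm39), whereas the study's methods name mm10. The annotation release, strand setting and multimapping rule are not given in the sources used here. Symbols came from GENCODE M21 for 51948 of 56884 identifiers, of which 35 had that reference's version, so no coordinates are given for the counted genes.

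The software was R 4.3.3 and edgeR 4.0.16, with TMM, filterByExpr by group, the quasi-likelihood test, and p-values adjusted by Benjamini-Hochberg over 17622 genes. Calls needed an adjusted p below 0.05 and a log2 fold change larger than 1 in size. The standard error was taken as the size of the log2 fold change over the square root of F. DESeq2 1.42.0 was the other count model. Correlations used log2 CPM with a prior count of 2. Both count models were first tested on simulated data. The members and lists were chosen with earlier results of these data known.

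Named were the members, in each of the 15 other lists up to 4 called genes with the lowest p and the gene with the highest mean CPM, the genes neighbouring a member in its family, and the 8 genes most like the members. The values of some genes that this rule chose are not reported. Results were also computed with other count models, normalizations and filters, a choroid plexus covariate, no fold limit and each mouse left out. Leaving out void mice 5 and 11 together was chosen after seeing the data.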

Additional observations from a re-analysis of the deposited data

Results flagged for a closer look

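A mouse was singled out when its gap to the nearest mouse of its group, divided by the range of the group, exceeded the 95% limit of Dixon's test. This was so in 6 of 38 groups examined (10 genes and 9 marker sums, each with void and with DHT), where chance gives about 1 in 20 groups, or 1.9. DHT mouse 3 was highest for Mgp (13.9 CPM, ratio 0.761), Slc6a13 (9.38 CPM, ratio 0.725) and Foxc1 (8.27 CPM, ratio 0.714), which move together, so these are not independent. DHT mouse 1 was highest for the astrocyte sum (9215 CPM, ratio 0.774) and for the blood sum (2.46 CPM, ratio 0.746). Void mouse 10 was highest for the microglia sum (549 CPM, ratio 0.879). The cause was not tested for any of them.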

How the results depend on the processing

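Of the log2 fold changes of the genes chosen by the naming rule, 784 values under the alternatives kept their direction and their side of an adjusted p of 0.05, whatever the size of the fold. Another 119 kept the direction with an adjusted p no longer under 0.05, 5 came newly under it and 72 changed sign. Members called higher numbered 2 with DESeq2, 2 with a filter of at least 1 count in total, 0 with the choroid plexus covariate, 0 without void mice 5 and 11 (chosen after seeing the data) and 1 to 2 when mice were left out singly. The median log2 fold change of the members was 0.86 with the covariate, 0.75 without both void mice and -0.27 to 0.39 when mice were left out singly. Genes called higher numbered 0 with the covariate, 0 without both void mice, 920 with no limit on the fold and 175 to 513 when mice were left out singly. Genes called lower numbered 7 with DESeq2, 8 with at least 1 count in total, 2 with at least 10 counts in every library, 0 with the covariate, 0 without both void mice, 46 with no limit on the fold and 0 to 7 when mice were left out singly.

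With the covariate, log2 fold changes changed sign to 0.0428 for Dcn, 0.40 for Mgp, 2.11 for Slc6a13, 2.54 for Slc22a6, 0.79 for Foxc1, 2.69 for Aldh1a2, -0.00145 for Slc22a17, -0.67 for Ttr, 0.16 for Flt1, 0.0887 for Rgs5, 0.22 for Slc1a2, 0.11 for Hbb-bs, 3.25 for Slc6a12 and 2.0004 for Mpzl2. Without both void mice they changed sign to 0.30 for Mgp, 1.02 for Slc6a13, 1.24 for Slc22a6, 0.25 for Foxc1, 1.57 for Aldh1a2, 0.0702 for Slc1a2, 0.20 for Hbb-bs, 1.69 for Slc6a12 and 1.07 for Mpzl2. With DESeq2, Stab1 was at -0.00831 and Fmod at -0.00371, and with DESeq2's size factors Stab1 was at -0.00819.

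When mice were left out singly, log2 fold changes with both signs ran from -0.40 to 0.54 for Aldh1a2, -0.0266 to 0.62 for Alx4, -0.16 to 0.32 for Anxa1, -0.0932 to 0.26 for Aspn, -0.26 to 0.58 for Fmod, -0.40 to 0.0172 for Foxc1, -0.0541 to 0.88 for Gm47171, -0.35 to 0.48 for H19, -0.46 to 0.33 for Hbb-bs, -0.20 to 0.23 for Mgp, -0.55 to 0.50 for Mpzl2, -0.63 to 0.73 for Omd, -0.22 to 0.00366 for Rgs5, -0.13 to 0.0592 for Slc1a2, -0.57 to 0.44 for Slc22a6, -0.52 to 0.79 for Slc6a12, -0.48 to 0.16 for Slc6a13 and -0.0885 to 0.0992 for Stab1. For each of these changes the cause was not tested.

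The study randomized littermates to treatment, but the litter of each mouse is not given in the sources used here. No paired analysis was therefore possible. The replicate number 5 occurs in both groups, but it belongs to different mice. With 5 mice per group, the 95% intervals of Slc6a13, Slc22a6 and Aldh1a2 each spanned more than 2 log2 units.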
